A study of Mus musculus with 2 samples.

Results

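*Ibsp*, which encodes bone sialoprotein, was set beside 9 other genes of bone matrix and mineralization in newborn mouse ureters treated with an inhibitor of WNT secretion. The 10 genes were chosen by their known function, with the fall of *Ibsp* on these arrays already known, to see whether *Ibsp* fell alone. They are the 5 genes of the SIBLING family (*Ibsp*, *Spp1*, *Dmp1*, *Mepe* and *Dspp*) and 5 osteogenic genes (*Alpl*, *Runx2*, *Sp7*, *Bglap* and *Mgp*), and they have 15 of the 39429 probes and are 10 of the 29924 gene names on the arrays. Because the choice rests on the same contrast, the values of these genes are given as a description, with no test.

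The ureters came from wildtype NMRI mice at postnatal day 0 and were cultured as explants for 18 h in medium with either 5 µM IWP-2 or the solvent, DMSO at 1:1000. IWP-2 inhibits PORCN, an acyltransferase whose modification of WNT ligands is needed for their secretion. RNA of a control pool and of a treated pool, each of several ureters, was compared on each of 2 two-colour oligonucleotide arrays. In replicate 1 the pools were female and the treated RNA carried the red dye, and in replicate 2 the pools were male and the treated RNA carried the green dye. Sex and dye orientation cannot be told apart, and each condition has 2 pools, which limits the precision of every value. In RNA of whole ureters, fewer cells of a type and less RNA per cell cannot be told apart.

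SIBLING proteins are secreted, acidic and heavily modified glycoproteins that bind hydroxyapatite, and they carry a motif that integrin receptors recognise. Their genes form a cluster in mammals. *Ibsp* is best known from osteoblasts, mineralizing cartilage and cementum, whereas osteopontin, the product of *Spp1*, is also made by many soft tissues and is found in urine, where it slows the growth of crystals. The ureter does not mineralize. RUNX2 and SP7 are the transcription factors that set up the osteoblast fate, and ALPL, osteocalcin (*Bglap*) and matrix Gla protein (*Mgp*) act on phosphate and on the mineral itself.

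The arrays read *Ibsp* with 2 probes that lie in different stretches of the transcript. Both are on the forward strand of chromosome 5 in the mm9 build, the first at chr5:104740413-104740472 and the second at chr5:104739720-104739779. The last 30 bases of each 60-base probe are shown, 5′ to 3′, because the main result rests on them. The capitals mark a polyadenylation signal (AATAAA), which is found in the first probe and not in the second.
First probe, chr5:104740443-104740472: ctggaacaaacttatgctaAATAAAtgact
Second probe, chr5:104739750-104739779: gcttttgtttgtagtgggcttcttctttta

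*Ibsp* fell with IWP-2 on both arrays and with both probes. With the first probe the normalised signal was 256 in the female control pool and 17.0 in the female treated pool, and 149 in the male control pool and 14.3 in the male treated pool. Both treated pools lay far below both control pools. The fold reduction was 15.01 in the female and 9.90 in the male array, when signals under 15 are set to 15, and the mean log2 ratio of IWP-2 over control was -3.61 ± 0.42 (SD, n = 2 arrays). The 4 spots of the probe gave log2 ratios between -4.12 and -3.79 on the female array and between -3.53 and -3.24 on the male array. On each array the spots therefore lay within a narrow range, and the ranges of the arrays did not overlap.

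The second probe gave the same order of the pools. Its signal was 147 in the female control and 7.38 in the female treated pool, and 92.1 in the male control and 6.32 in the male treated pool. Both treated signals were well above background by the scanner's flag, although they lie under 15. With the floor at 15 the mean log2 ratio was -2.96 ± 0.48 (SD, n = 2), and with the floor at 1 it was -4.09 ± 0.32, a 17.0-fold reduction. With this probe the remaining *Ibsp* signal was thus flagged above background but, like the signals of *Mepe* and *Dspp* below, close to the limit of detection.

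*Ibsp* lay at the low end of the 14336 genes tested, beside *Cyp2e1* at -3.57. The gap between them was smaller than the SD of *Ibsp* between arrays and their order was not fixed, since *Cyp2e1* was lower with normexp background correction (-3.30 against -2.82) and with the mean of all probes of a gene (-4.01 against -3.28). *Notumos* was the lowest gene with the floor at 1 (-4.09 against -3.64 for *Ibsp*) and in the deposited series table (-3.65 against -3.62). Under the 8 alternatives *Ibsp* ranked 1 or 2 from the lowest. Across all genes tested the 1st percentile of the mean log2 ratio was -0.45, the median -0.01 and the 99th percentile 0.43. The WNT feedback gene *Axin2*, a readout of the pathway, served as the check of the treatment. Its signal was 181 and 154 in the female and male control pools and 42.2 and 46.7 in the treated pools, a mean log2 ratio of -1.91 (limma, adjusted p = 0.000826). The second *Axin2* probe was dim. It read 20.2 and 17.3 in the control pools and 7.90 and 6.21 in the treated pools.

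**Figure D1:**
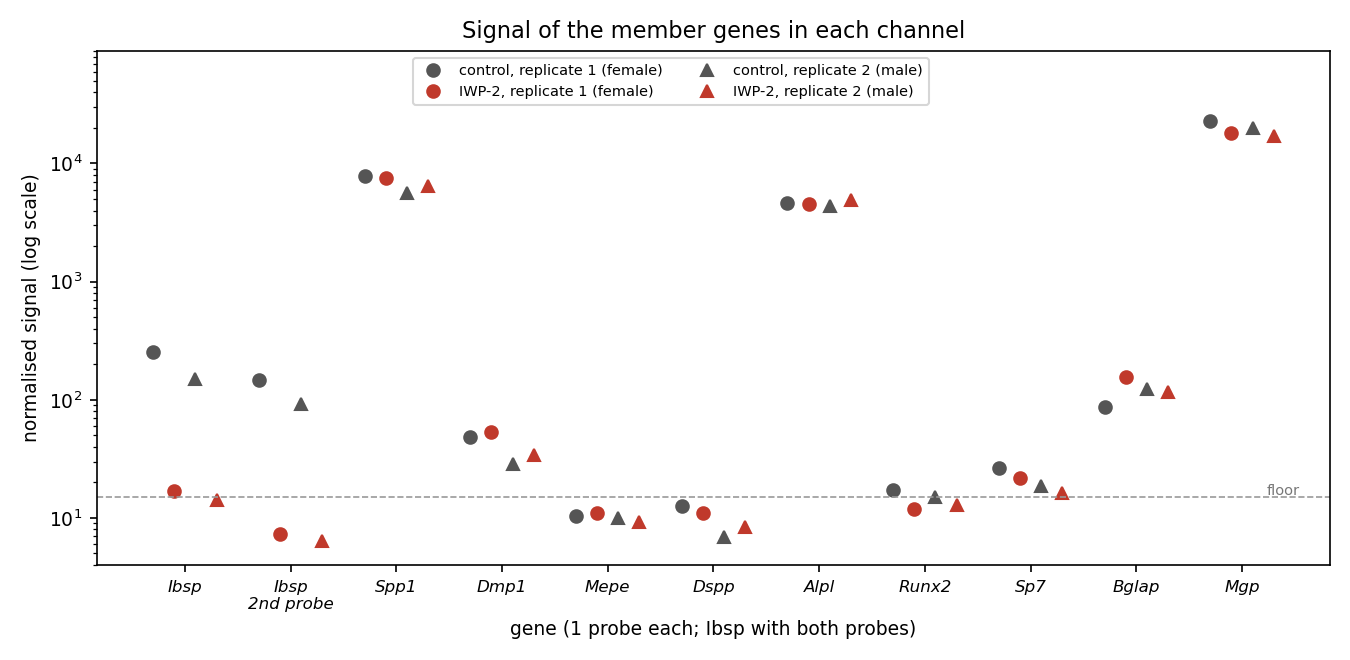
Normalised signal (log axis) of the 10 genes in each of the 4 channels, with both *Ibsp* probes. Circles are the female and triangles the male array, grey is control and red is IWP-2, and the dashed line is the floor of 15. Heights may be compared within a gene and not between genes. Control and IWP-2 signals lie far apart for both *Ibsp* probes (256 and 149 against 17.0 and 14.3 for the first), closer for *Bglap* on the female array (87.5 against 156), and close together for the other genes.

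Of the other SIBLING genes, *Spp1* did not follow *Ibsp*. Its signal was 7791 in the female control and 7577 in the female treated pool, and 5648 in the male control and 6445 in the male treated pool. The log2 ratio was -0.04 on the female and 0.19 on the male array, with a mean of 0.08 ± 0.16 (SD, n = 2). The sign differed between the arrays, and the mean was smaller than its spread. Osteopontin and bone sialoprotein share their chemistry and their integrin receptors, yet their transcripts differed by 3.68 in mean log2 ratio in the same RNA pools.

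*Dmp1*, whose product is made by osteocytes and odontoblasts and restrains the phosphate hormone FGF23, was dim but well above background in every channel. Its signal was 48.6 in the female control and 53.9 in the female treated pool, and 28.6 in the male control and 34.2 in the male treated pool. The log2 ratio was 0.15 on the female and 0.26 on the male array, a mean of 0.20 ± 0.08 (SD, n = 2). The treated pool was higher on each array, while the control pool of the female array exceeded the treated pool of the male array.

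*Mepe* and *Dspp* were close to the limit of detection. MEPE is a phosphate-regulating matrix protein of osteocytes, and DSPP is the chief non-collagen protein of dentin. The *Mepe* signal was 10.4 and 11.0 in the female control and treated pools and 10.0 and 9.18 in the male ones. The brighter *Dspp* probe read 12.7 and 11.0 in the female control and treated pools and 6.86 and 8.44 in the male ones. All of these lie under the floor of 15, where ratios are 0 by construction, and with a floor of 1 the mean log2 ratio was -0.02 ± 0.15 for *Mepe* and 0.05 ± 0.36 for *Dspp* (SD, n = 2). The other *Dspp* probe was well above background in 1 of the 4 channels only, so no fold is given.

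Among the osteogenic genes, the transcription factors were barely detected. The 1 probe of *Runx2* that was well above background read 17.4 in the female control and 11.9 in the female treated pool, and 15.2 in the male control and 12.8 in the male treated pool. Both treated pools were below both control pools, but the mean log2 ratio was -0.11 ± 0.14 with the floor at 15 and -0.39 ± 0.21 with the floor at 1 (SD, n = 2). Its spots differed widely, with log2 ratios from -0.93 to -0.20 on the female and from -0.46 to 0.08 on the male array. The other *Runx2* probes, which lie elsewhere in the gene, were not well above background in any channel.

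*Sp7*, the zinc finger factor osterix, read 26.3 in the female control and 22.0 in the female treated pool, and 18.5 in the male control and 16.3 in the male treated pool. The treated pool was lower on each array, with a mean log2 ratio of -0.22 ± 0.05 (SD, n = 2), and the female treated pool still exceeded the male control pool. No level of *Runx2* or *Sp7* can be set against that of *Ibsp*, because probes differ in brightness.

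*Alpl*, the phosphatase that removes the mineral inhibitor pyrophosphate, gave a strong signal in all pools, of 4607 in the female control and 4563 in the female treated pool, and 4356 in the male control and 4923 in the male treated pool. The log2 ratio was -0.01 on the female and 0.18 on the male array, with a mean of 0.08 ± 0.13 (SD, n = 2). The treated pools lay on either side of the female control, and the groups overlapped.

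*Mgp*, an inhibitor of calcification in soft tissues and arteries, was lower with IWP-2 on both arrays, by a small amount. Its signal was 22912 in the female control and 17974 in the female treated pool, and 19985 in the male control and 16922 in the male treated pool. Both treated pools lay below both control pools. The mean log2 ratio was -0.30 ± 0.08 (SD, n = 2), a 1.23-fold reduction, and 2.65% of all genes tested had a ratio as low or lower.

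*Bglap* gave different results on the arrays. Its signal was 87.5 in the female control and 156 in the female treated pool, and 123 in the male control and 116 in the male treated pool. The log2 ratio was 0.83 on the female and -0.09 on the male array, and the 4 spots agreed within each array, at 0.78 to 0.90 and at -0.16 to -0.01. The mean of 0.37 ± 0.65 (SD, n = 2) was smaller than its spread. The neighbouring copies *Bglap2* and *Bglap3*, 2 close relatives of the osteocalcin gene, showed the same split. The log2 ratio was 0.61 on the female and -0.10 on the male array for *Bglap2*, and 0.73 and -0.03 for *Bglap3*. Since the copies are close in sequence, which of them each probe reads is uncertain. The other *Bglap* probe was not well above background in any channel.

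**Figure D2:**
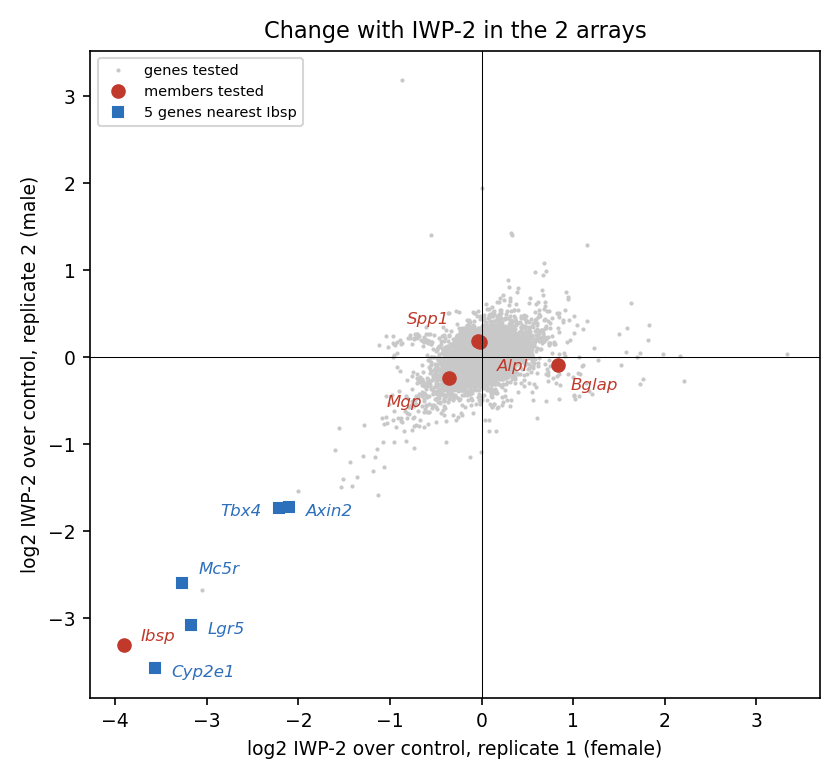
Log2 ratio of IWP-2 over control on the female array (horizontal) and on the male array (vertical) for the 14336 genes tested (grey), the 5 tested members (red) and the 5 genes nearest to *Ibsp* (blue). *Ibsp* lies at -3.91 and -3.31, *Spp1*, *Alpl* and *Mgp* lie in the cloud of all genes, and *Bglap* lies at 0.83 and -0.09.

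Of the 10 genes, 5 had a mean signal above 100 in the control or treated channels and entered the fit over all genes (*Ibsp*, *Spp1*, *Alpl*, *Bglap* and *Mgp*), and the other 5 did not. Among these 5, limma called *Ibsp* alone, as lower, against 0.886% of the 14336 genes tested called lower and 0.363% called higher. The study's filter asks for a control signal above 100 and a change of at least 1.5-fold in each array. Only *Ibsp*, *Spp1*, *Alpl* and *Mgp* met the signal condition, so the other members could not pass whatever their change. Of those that met it, *Ibsp* alone was past the fold threshold. The filter took 0.363% of 14051 genes as lower and 0.0783% as higher. As *Ibsp* was the reason for the choice, nothing is read from these counts. The median mean log2 ratio of the 4 tested members other than *Ibsp* was 0.08, beside -0.01 over all genes tested.

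The SIBLING genes form 1 cluster, and the probes give their order on chromosome 5 in mm9. Relative to the first *Ibsp* probe, the *Dspp* probe lay 131 kb and the *Dmp1* probe 97.5 kb before it, and the *Mepe* probe lay 27 kb and the *Spp1* probe 128 kb after it. The mean log2 ratio went from 0.20 for *Dmp1* to -3.61 for *Ibsp* and back to 0.08 for *Spp1*. Within 600 kb on either side the arrays had 17 further gene names, of which 9 were tested and lay between -0.15 and 0.25, with a median of 0.03. Limma called 0 of these 9 at an adjusted p of 0.05. Of the 9, 1 had an unadjusted p under 0.05, beside 12.9% of all genes tested. *Sparcl1*, a matrix protein gene related to the SIBLING genes by descent, lay 232 kb before *Ibsp* with log2 ratios of -0.45 on the female and 0.15 on the male array. *Pkd2*, which encodes the channel polycystin-2, lay 194 kb after *Ibsp*, with log2 ratios of -0.21 and 0.03.

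**Figure D3:**
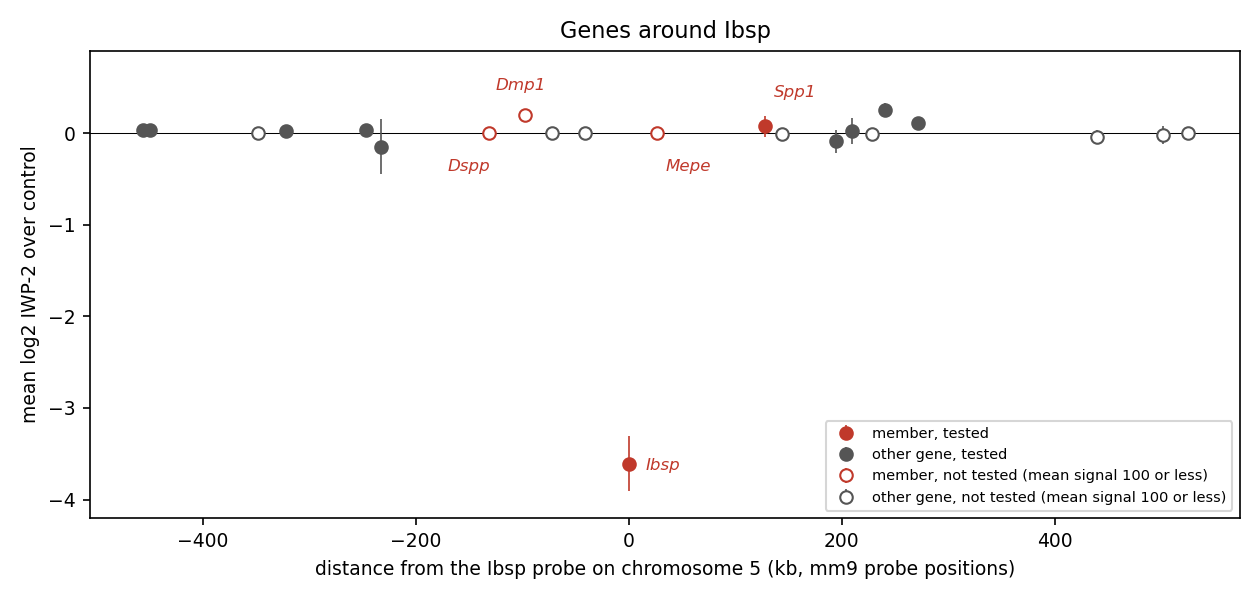
Mean log2 ratio of IWP-2 over control (vertical, whiskers reach the values of the 2 arrays) against the distance of each gene's probe from the *Ibsp* probe in kb (horizontal). Filled points were tested, open points had a mean signal of 100 or less, and red marks members. *Ibsp* at -3.61 stands alone among points between -0.15 and 0.25.

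Sequence before the start of the gene was compared for the members that have an entry in the RefSeq promoter table of GRCm38.p6. These were 7 of the 10 genes with 10 windows (*Ibsp*, *Spp1*, *Dmp1*, *Mepe*, *Alpl*, *Runx2* and *Bglap*). *Dspp*, *Sp7* and *Mgp* have none there. The 250 bases before the start were searched on both strands for exact matches to short motifs. They were CTTTGAT (a form of the TCF/LEF motif that answers to WNT), ACCACA (RUNX) and TAATTA (DLX and MSX). The others were CCAAT (NFY), TATAAA (the TATA box) and TGACGT (the cyclic AMP element). None of these motifs overlapped another in the windows shown.

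The window of *Ibsp* and 1 window of its neighbour *Spp1* are shown, since the genes belong to 1 cluster and their ratios differ. Both are on the forward strand and are written 5′ to 3′ up to the last base before the start, with the matches in capitals.
Ibsp, chr5:104299037-104299286: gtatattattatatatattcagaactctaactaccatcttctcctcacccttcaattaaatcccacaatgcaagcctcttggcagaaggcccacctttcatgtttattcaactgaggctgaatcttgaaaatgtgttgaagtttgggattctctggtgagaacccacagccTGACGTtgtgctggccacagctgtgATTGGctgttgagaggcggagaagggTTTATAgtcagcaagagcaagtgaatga
Spp1, chr5:104434861-104435110: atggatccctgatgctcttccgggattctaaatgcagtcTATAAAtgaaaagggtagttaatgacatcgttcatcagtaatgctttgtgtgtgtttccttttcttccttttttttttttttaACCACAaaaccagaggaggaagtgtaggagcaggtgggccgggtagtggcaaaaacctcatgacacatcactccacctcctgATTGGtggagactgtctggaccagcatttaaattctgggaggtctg

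In the *Ibsp* window CCAAT and TATAAA both stand on the reverse strand, as ATTGG from 54 to 50 bases and as TTTATA from 28 to 23 bases before the start. An inverted CCAAT box and an inverted TATA box are known features of the bone sialoprotein promoter. TGACGT stands from 79 to 74 bases before the start of *Ibsp* and was found in no other member's window, while 6.47% of the 32851 windows of all genes hold it. The *Spp1* window shown also has CCAAT on the reverse strand, from 46 to 42 bases before the start. The other *Spp1* window, chr5:104435942-104436191, held TAATTA from 122 to 117 bases before its own start and none of the other motifs.

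The WNT-related motif CTTTGAT was found in 0 of the 10 windows of the members, the *Ibsp* window included, and in 3.21% of all windows. With so low a share over all windows, nothing is read from its absence in 10. Other forms of the motif were not searched. ACCACA was found in 5 of the 10 windows (*Spp1*, *Dmp1*, *Mepe*, *Runx2* and *Bglap*) and in 14% of all windows, and not in that of *Ibsp*. CCAAT was found in 6 of 10 and 33.8% of all windows, TATAAA in 5 of 10 and 12.4%, and TAATTA in 2 of 10 and 4.84%. A match describes these letters only, and these windows hold no distant element.

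The wider bone programme was followed with 6 lists of genes, written by function with earlier results of these arrays known. Together they hold 73 gene names other than the members, of which 71 are on the arrays and 50 were tested. Limma called 0 of the 50 at an adjusted p of 0.05, against the 0.886% and 0.363% of all genes called lower and higher, 19 (38%) had an unadjusted p under 0.05 beside 12.9% of all genes tested, and the study's filter took 0. The median of their mean log2 ratios was -0.05, beside -0.01 over all genes, and 20 were lower on both arrays, 12 higher on both, and 18 differed in direction.

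Of 15 listed regulators of the osteoblast and chondrocyte fates, 11 were tested, with a median of -0.08 and values from -0.25 to 0.31. *Twist1*, a factor that holds back RUNX2, read 676 and 559 in the female and male controls and 541 and 493 in the treated pools (mean log2 ratio -0.25 ± 0.10, SD, n = 2, limma, adjusted p = 0.187). *Sox9*, the master factor of cartilage, read 239 and 224 in the controls and 260 and 318 in the treated pools (0.31 ± 0.27, adjusted p = 0.234 by limma). Neither passed the test.

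Of the structural genes of bone matrix, 12 were tested, with a median of -0.04 and values from -0.32 to 0.38. *Aspn*, a small leucine-rich proteoglycan gene, read 1878 and 1438 in the controls and 2180 and 2100 in the treated pools (mean log2 ratio 0.38, limma, adjusted p = 0.138). *Bglap3* came next, at 0.35 (limma, adjusted p = 0.47). For 8 of the 12 genes the arrays differed in direction.

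The genes that set phosphate and pyrophosphate had 9 tested members with a median of -0.03. The highest were *Nt5e*, the ectonucleotidase CD73 (mean log2 ratio 0.28 ± 0.13, SD, n = 2, limma, adjusted p = 0.161), and *Enpp1*, which makes pyrophosphate (0.28 ± 0.10, limma, adjusted p = 0.155). *Enpp1* read 416 and 364 in the controls and 480 and 463 in the treated pools, and its second probe gave 0.31.

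Receptors, proteases and partners of the SIBLING proteins had 12 tested genes with a median of -0.06. *Mmp9*, a matrix protease, read 332 and 276 in the controls and 479 and 328 in the treated pools (mean log2 ratio 0.39 ± 0.19, SD, n = 2, limma, adjusted p = 0.112). None of the 12 passed the test.

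Genes of osteocytes and osteoclasts had 6 tested members. *Mmp13*, a collagenase of late cartilage and of osteoblasts, read 44.2 in the female control and 133 in the female treated pool, and 287 in the male control and 362 in the male treated pool, so the male control exceeded the female treated pool (mean log2 ratio 0.96 ± 0.89, SD, n = 2, limma, adjusted p = 0.161). *Tnfrsf11b*, which encodes the decoy receptor osteoprotegerin, read 241 and 398 in the controls and 201 and 248 in the treated pools (-0.47 ± 0.30, limma, adjusted p = 0.117). *Tnfsf11*, named after its values were seen, encodes the ligand RANKL and had too low a mean signal to be tested. It read 107.3 and 84.0 in the controls and 57.6 and 50.8 in the treated pools, with a mean log2 ratio of -0.81. The enamel genes, relatives of the SIBLING genes on the same chromosome or on the X chromosome, were all 5 too dim to be tested.

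**Figure D4:**
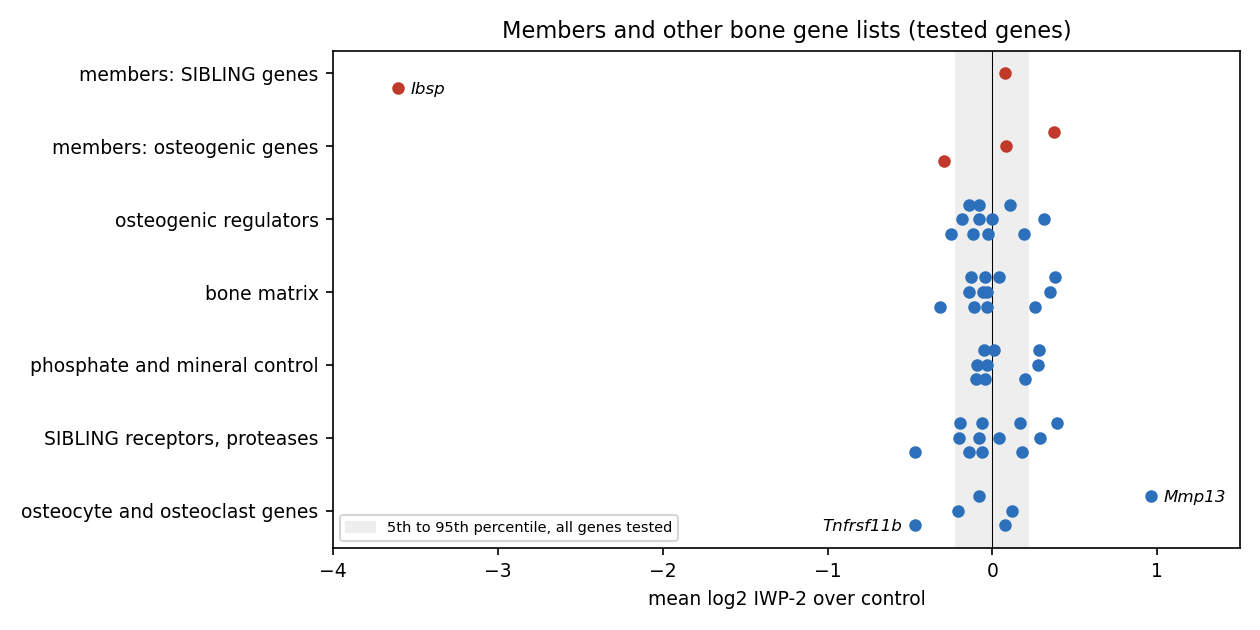
Mean log2 ratio of IWP-2 over control (horizontal) of each tested gene in the lists of members (red) and of other bone genes (blue), with the 5th to 95th percentile of all genes tested in grey (-0.22 to 0.22). *Ibsp* at -3.61 lies outside the range of all other points, from -0.47 to 0.96 for *Mmp13*.

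The genes whose changes were most like that of *Ibsp* were taken as those with the smallest Euclidean distance over the log2 ratios of the 2 arrays, among 14050 genes with control signals above 100 in both. They were *Cyp2e1*, *Lgr5*, *Mc5r*, *Tbx4* and *Axin2*, at distances of 0.43, 0.77, 0.96, 2.32 and 2.40. *Tbx4* and *Axin2*, with mean log2 ratios of -1.97 and -1.91, fell less than *Ibsp* at -3.61. None of the nearest genes belongs to the bone lists. That was settled beforehand, since tested genes of those lists had mean log2 ratios between -0.47 and 0.96, and nothing is read from it. *Cyp2e1*, a cytochrome of the liver that metabolises ethanol, read 763 and 713 in the controls and 64.4 and 59.7 in the treated pools. *Lgr5*, a receptor for R-spondins that marks stem cells of several epithelia, read 135 and 157 in the controls, at or under the floor of 15 in the female treated pool and 18.6 in the male one. *Mc5r*, a melanocortin receptor gene, read 154 and 120 in the controls and 15.97 and 19.9 in the treated pools. *Tbx4*, a T-box factor, read 228 and 164 in the controls and 49.3 and 49.2 in the treated pools. With its female treated signal set to the floor, the ratio of *Lgr5* on that array is a bound. The likeness rests on 2 ratios for each gene.

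Marker genes of other cell types were set beside the fall of *Ibsp*, and their part in it was not tested. Of the 4 cartilage markers, *Acan*, *Col10a1* and *Comp* were not well above background in any channel, and *Col2a1* was dim, at 35.8 and 19.5 in the controls and 18.4 and 10.5 in the treated pools. The mean log2 ratio of *Col2a1* was -0.67 with the floor at 15 and -0.93 with the floor at 1. The summed cartilage signal was 46.3 and 27.8 in the controls and 29.0 and 20.8 in the treated pools. This sum adds the probes not above background to *Col2a1* and does not measure an amount of cartilage. Of the 4 genes, 0 were bright enough to be tested. Among the 3 lamina propria markers, whose cells form the loose layer under the urothelium, *Aldh1a2* fell (mean log2 ratio -0.63, limma, adjusted p = 0.0281). *Thy1* had -0.48 (adjusted p = 0.0547 by limma) and *Pdgfra* -0.11. The 3 were picked with earlier results of these arrays known. Other genes of that layer are not in the list, so the 3 do not stand for the layer. The summed lamina propria signal was 17788 and 16139 in the controls and 13740 and 14036 in the treated pools. Of these sums *Pdgfra*, the brightest of the 3 probes, gave 9272 and 8512 in the controls and 8243 and 8232 in the treated pools. A sum of probes that differ in brightness mostly follows the brightest and does not measure the amount of lamina propria. All 6 urothelial markers were higher in the treated pool of both arrays, with a median of 0.29, and limma called 0 of them at an adjusted p of 0.05, while 5 of the 6 had an unadjusted p under 0.05, beside 12.9% of all genes tested. The 5 smooth muscle markers had a median of 0.13, the 3 tested macrophage markers 0.15 and the 3 endothelial markers -0.03. The urothelial and smooth muscle markers, which define the labelled tissue, were well above background in every channel, and the kidney tubule markers were all too dim to be tested.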

How the data were processed

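The intensities are processed signals of both dyes in the authors' deposited scanner files, which the labels assign to the control and treated pools. Per the file headers, Agilent Feature Extraction 12.2.0.7 made them (the submitters' processing notes name 10.7.3.1), with background subtracted and dyes normalized. The deposited log10 ratio of red over green was used only to check directions. The deposited series table holds a score, a fold change with a sign (treated over control) that the authors rounded to 1 decimal. Its scale and direction were found by comparison with the arrays (r = 0.98 and 0.97 over 14336 genes, median of each column 1), and it was used as an alternative.

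Each array had 157716 gene spots (4 for each probe), with 0 saturated. The 17263 control spots were left out, as were spots flagged as outliers (3.32% and 3.22%). Signals were normalized within arrays by loess (limma 3.58.1, R 4.3.3), averaged over spots, floored at 15 and put on the log2 scale. A gene was represented by its probe with the highest mean log2 signal, and all probes of the members are given. A probe was well above background in a channel when more than 0.5 of its spots carried the scanner's flag. Log2 ratios, turned to treated over control, were tested against 0 with lmFit and eBayes for genes with a mean signal above 100 in control or treated channels, with Benjamini-Hochberg adjustment at 0.05. Each ratio pairs the control and treated pool of 1 replicate. The steps were also tested on simulated data.

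The members and lists were chosen with earlier results of these data known. Named genes are the members, the called genes of each bone list or else its 2 tested genes with the largest absolute mean log2 ratio, the 5 genes nearest to *Ibsp*, and *Axin2*. *Bglap2*, *Tnfsf11*, *Pkd2* and the markers with values were added after their values were seen. Gene names and mm9 positions are those of the array files. *Ankh* and *Emr1* are no gene names of these files. Some items that the rule names are not reported here. Promoter sequences are from RefSeq (GRCm38.p6). Alternatives are listed in the closing section. Cyclopamine arrays of the study were not analysed here.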

Additional observations from a re-analysis of the deposited data

Results flagged for a closer look

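*Spp1*, *Alpl* and *Bglap* had log2 ratios of opposite sign on the female and male arrays. The female ratios of *Spp1* and *Alpl* were small beside the SD of 0.22 over all genes tested on that array. With 1 array for each sex, and the dyes swapped between them, the difference was not tested. The log2 ratio of IWP-2 over control was lower on the female than on the male array by a difference of -0.23 for *Spp1* (-0.04 and 0.19) and of -0.19 for *Alpl* (-0.01 and 0.18). For *Bglap* it was higher on the female array, by 0.92 (0.83 and -0.09). Of the 14336 genes tested, 6480 had opposite signs on the arrays.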

How the results depend on the processing

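*Ibsp* stayed lower under all 8 other ways of processing, with a mean log2 ratio from -3.64 to -2.82. The highest of these came with normexp background correction, which adds an offset of 50 and raises dim signals. With 1 array alone it was -3.91 to -3.31. The median over the 10 members was 0 with the floor at 15, -0.10 in the deposited series table, and -0.027 to -0.0076 with 1 array alone. *Mgp*, *Runx2* and *Sp7* stayed below 0 and *Spp1*, *Dmp1*, *Alpl* and *Bglap* above 0 under those 8 alternatives, while *Mepe* and *Dspp* are set by the floor.

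Over all genes, limma's higher calls (52) became 102 with normexp, 32 without normalization within arrays and 85 with median centring. With the mean of all probes limma called 50 lower and 17 higher, and with no filter on signal 0 and 0, and the cause was not tested. In the bone lists limma called 1 gene at a signal threshold of 50, *Tnfsf11* (mean log2 ratio -0.81, adjusted p = 0.0139), which was not tested at 100. The study's filter took 19 lower and 0 higher at a 2-fold threshold, and 78 to 160 lower and 25 to 112 higher with 1 array alone. Each ratio pairs the pools of 1 array, so no separate fit with a replicate block was run. With 2 arrays and signals near background, changes of *Runx2*, *Mepe* and *Dspp* smaller than the spread between spots were not detectable.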
